A study of Drosophila melanogaster with 12 samples.

Results

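The wild-type expression profile of sorted embryonic mesoderm of Drosophila melanogaster was read from 6 of the 12 arrays of the series. These are wild type set 2 and wild type set 1, with 3 arrays each, lettered A to C, and they were chosen by their titles alone. The series' other 6 arrays hold mesodermal cells with gain of function of Slou or of Msh, which are homeodomain factors of muscle founder cells. All wild-type embryos carried twi-gal4 and UAS-GFP insertions, which put GFP into cells that express Twist, so wild type here means without a further transgene. Embryos were staged to late stage 11 or early stage 12, GFP-positive cells were sorted by flow cytometry from single-cell suspensions, and total RNA was taken up in Trizol. Each biotin-labelled target was made from 2 to 5 micrograms of it. The sample is what the twi-gal4 driver marks, pooled over all its cell types, so fewer cells of a type and less RNA per cell cannot be told apart. The labels do not say whether the 3 arrays of a set are separate collections, so the p-values cover the spread among these arrays alone, and that may be technical. They also do not say how the sets differ, so set and batch cannot be told apart.

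Twist is a basic helix-loop-helix factor that defines the mesoderm and later persists in the precursors of adult muscles. By stages 11 and 12 the mesoderm is divided into primordia of visceral muscle, heart, fat body, blood cells and body wall muscle. In the last, founder cells carry identity factors and take up fusion-competent myoblasts, before most contractile proteins are made in bulk.

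Of 18952 probe sets, 183 controls were dropped, and the 13647 with 1 gene symbol were ranked within each array. The percent rank runs from 0 for the dimmest to 100 for the brightest probe set, which removes the different scales of the sets. Each of 11983 genes is given by its probe set of highest mean rank. A rank is a probe set's brightness, which its probes' affinity sets as well as the RNA, so only broad bands are compared between genes. Bands were drawn on the mean over 6 arrays: abundant from 90, moderate from 60, low from 40, and near background under 40.

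The cell type on the label was checked against 5 markers. Ppn, papilin, an extracellular matrix protein, had a percent rank of 99.7, 99.7 and 99.7 in set 2 and of 99.7, 99.8 and 99.7 in set 1. zfh1, a zinc-finger homeobox factor of mesoderm, lay at 95.8, 96.5 and 96.5 in set 2 and at 98.1, 97.9 and 98.1 in set 1. Both were thus among the abundant genes on every array. twi itself had ranks of 78.6, 73.0 and 74.5 in set 2 and 85.1, 86.2 and 84.6 in set 1, a moderate level with no overlap between the sets. Such a lack of overlap was found for 39.9% of all genes. htl, the FGF receptor of the mesoderm, lay at 75.0, 79.8 and 80.5 in set 2 and at 82.2, 82.1 and 79.2 in set 1, and the sets overlapped. Mef2, the fifth marker, has no probe set with 1 gene symbol in the annotation used here and was not analysed.

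The brightest genes were those of the translation machinery. Of the 20 genes of highest mean rank, 19 encode cytosolic ribosomal proteins, and the other is Hsc70-4, a constitutive chaperone. RpL41 held place 1 or 2 on every array, and RpS18 never fell below place 4. RpLP1, RpS27A, RpL15, RpS28b, RpS26, RpS20, RpLP2, RpS7, RpL32, RpLP0, RpS21, RpL39, RpL23, RpS29, RpS12, RpL3 and RpL37A followed. The lowest place of any of the 20 on any array was 28, for RpS29 on array C of set 2. Of their probe sets 11 carry the suffix _s_at, which marks probes shared by several transcripts, so signal from near-identical copies may be included.

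Beyond the ribosome, the genes next in rank were a mixed group, listed here after their values were seen. They included eEF5, an elongation factor, at a mean rank of 99.8, and eIF4A, an initiation helicase, at 99.8. Rack1, a ribosomal scaffold, Sumo, a protein modifier, and Tctp, a growth regulator, each had a mean rank of 99.8. betaTub60D, a tubulin of developing mesoderm, and His2Av, a histone variant, were both at 99.7. The actin regulators tsr, cofilin, and chic, profilin, were at 99.7 as well. Ppn stood with this group, whereas LanA, the laminin alpha chain of basement membrane, was at 99.6.

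**Figure D1:**
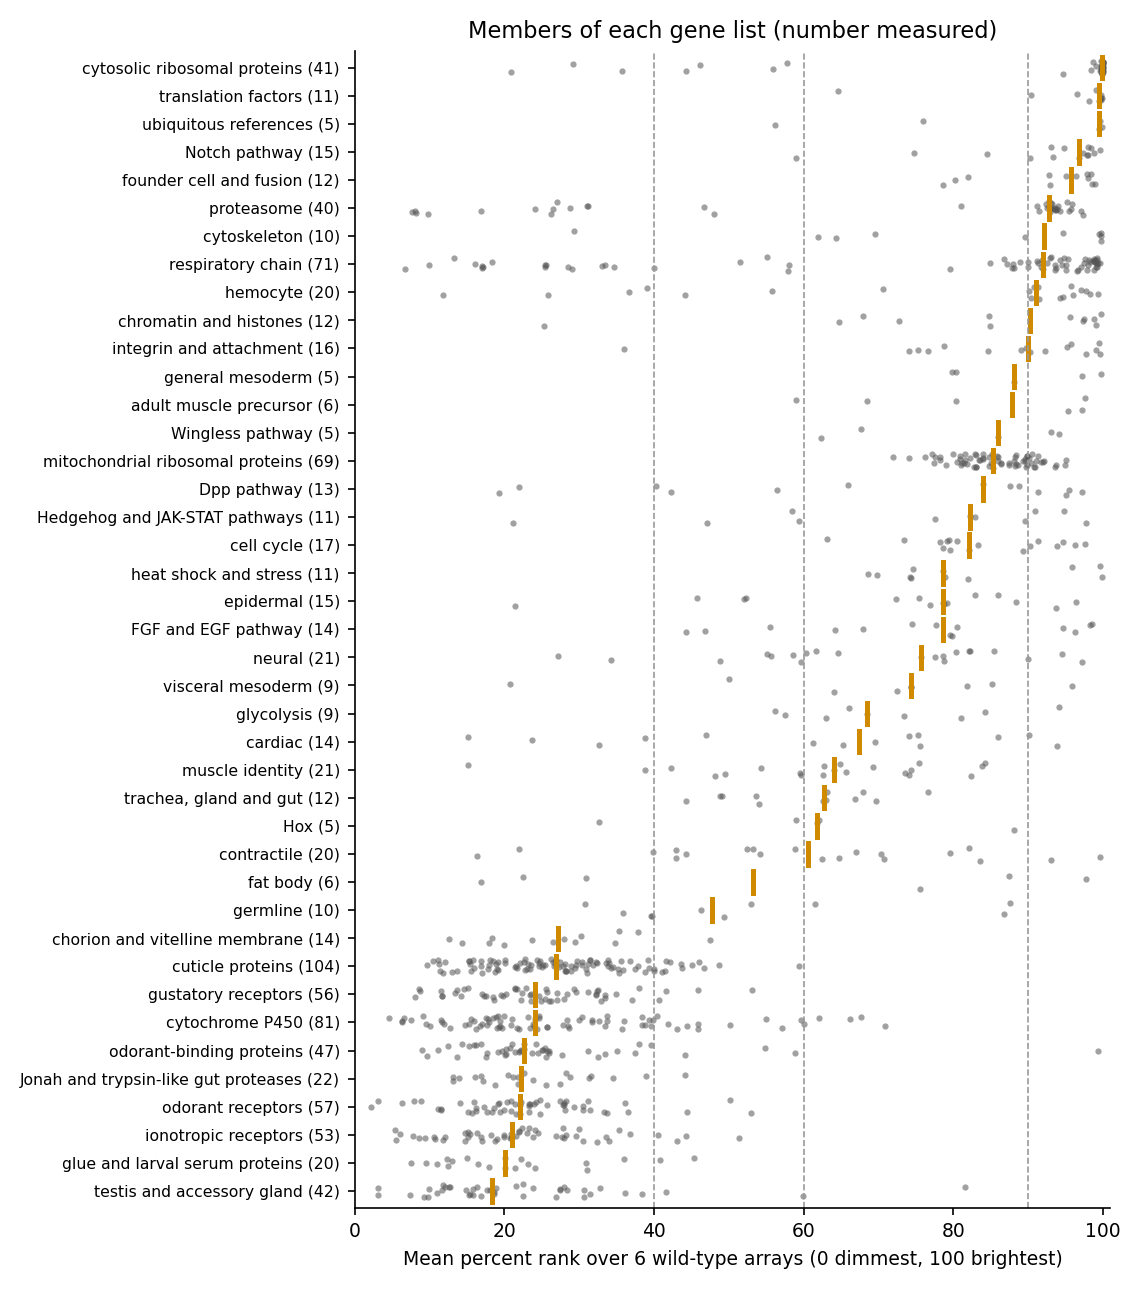
Mean percent rank over the 6 wild-type arrays (horizontal axis) of every measured member of each gene list with at least 5 members, ordered by the list's median (orange bar); dashed lines mark ranks of 40, 60 and 90. Ribosomal proteins have a median of 99.8, fusion genes of 95.7 and contractile genes of 60.6, whereas families of adult sense organs lie between 21.1 and 24.1.

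General mesoderm and fusion genes lay high. Of 5 measured general mesoderm genes 2 were abundant and 3 moderate (median rank 88.2), where the median over all genes was 51.6. All 12 measured genes of founder cells and fusion were at least moderate, and 9 were abundant (median 95.7). lmd, a zinc-finger factor of fusion-competent myoblasts, had a mean rank of 99.0, and pyd, a junction scaffold, one of 98.5. Vrp1, which binds the actin regulator WASp, was at 98.4, and rst, a recognition receptor of fusion, at 98.0. The lowest of the list were sns at 82.0, rols at 80.2 and kirre at 78.7. Of these, sns is the receptor of fusion-competent myoblasts, kirre its partner on founder cells and rols an adaptor behind kirre.

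Muscle identity factors, which are on in few founder cells each, were nowhere abundant. Of 21 measured, 13 were moderate, 6 low and 2 near background (median 64.0). Dr, the gene of Msh, led with a mean rank of 84.2, and then came kn, the Collier factor, at 83.9, Kr, Krüppel, at 82.3, and tey at 75.4. The 3 lowest were Poxm at 42.2, lbl at 38.7 and lbe at 15.2. Ranks of lbl ranged from 26.5 to 52.6 in set 2 and from 9.5 to 47.0 in set 1, which is the spread of a probe set near background.

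Contractile genes were spread over all bands. Of 20 measured, 2 were abundant, 8 moderate, 7 low and 3 near background (median 60.6). Act87E, an actin, had a mean rank of 99.6, though its probe set is of the shared kind and actin genes are near-identical. sls, the titin-like protein of the sarcomere, was at 93.1, TpnC73F, a troponin C, at 83.6, and Actn, alpha-actinin of the Z-disc, at 82.1. At the other end stood Act88F, the flight muscle actin, at 39.9, fln, flightin of flight muscle, at 21.9, and Obsc, the obscurin Unc-89, at 16.3. In contrast, the integrin and attachment list had 15 of 16 members at least moderate (median 90). It was led by the laminin chains LanA at 99.6, LanB2 at 99.5 and LanB1 at 99.0, and by rhea, talin, at 97.7. Its lowest members were if, an integrin alpha chain, at 75.3, Fit2, a kindlin, at 74.0, and sr, the tendon cell factor, at 36.0.

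Genes listed for the other mesodermal primordia ranged from abundant to near background. Some are shared between lists, such as svp by the cardiac and fat body lists and srp by the fat body and hemocyte lists. Median ranks of the visceral and cardiac lists, 74.4 and 67.4, were below those of the neural and epidermal lists, 75.7 and 78.6. High ranks here therefore do not show that a primordium was present among the sorted cells, which was not tested. Of 9 visceral mesoderm genes 7 were at least moderate (median 74.4), among them vimar at 95.9, Con, a cell adhesion protein, at 85.2, HLH54F, a factor of the caudal visceral mesoderm, at 81.8, and bap, the bagpipe homeobox factor, at 74.4. org-1, a T-box factor, was at 64.0, jeb, the ligand of the receptor Alk, at 50.1, and Alk at 20.8. Of 14 cardiac genes 9 were at least moderate (median 67.4). robo1, a guidance receptor, at 93.9, ush, a GATA cofactor, at 90.1, and the GATA factor pnr at 86.0 led them, with the nuclear receptor svp at 75.6. sli, the ligand of Robo receptors, at 32.6, the T-box gene H15 at 23.7 and lbe at 15.2 were near background. Of 6 fat body genes, srp, the GATA factor of fat body and blood, had a mean rank of 97.7, apolpp, the lipid carrier, one of 87.5, and svp one of 75.6. The storage and fat body proteins Lsp2 at 30.9, Fbp1 at 22.5 and Fbp2 at 16.9, products of later stages, were near background.

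Blood cell genes ranged from abundant to near background. Of 20 hemocyte genes 13 were abundant and 1 moderate (median 91.0). NimC4, a receptor for dying cells, was at 99.3, PPO2, a prophenoloxidase of crystal cells, at 98.3, srp at 97.7 and Pxn, peroxidasin of the matrix, at 97.0. The collagen IV chains Col4a1 and vkg had mean ranks of 94.2 and 90.7. Glt at 70.6, gcm2 at 55.8 and Hml at 44.2 lay in between, and lz at 39.1 was near background. NimC1 at 36.6, He at 25.8 and eater at 11.9, surface proteins known from larval blood cells, were near background too. Among 6 genes of adult muscle precursors, E(spl)mdelta-HLH at 97.6, zfh1 at 97.2 and Him, an inhibitor of Mef2, at 95.3 were abundant. twi followed at 80.3, ct, a homeobox factor, at 68.4 and E(spl)m6-BFM at 59.0.

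Genes of tissues outside the mesoderm were also bright. Of 21 neural genes 14 were at least moderate (median 75.7), led by elav, a neuronal RNA-binding protein, at 97.2, nerfin-1 at 94.5, pros, a factor of neural differentiation, at 89.96, and wor, a neuroblast factor, at 85.4. The synaptic genes brp at 34.2 and nSyb at 27.1 were near background, and futsch, a microtubule protein of axons, was at 48.9. Averaged over the 21 members, the rank ranged from 70.7 to 71.9 on the arrays of set 2 and from 64.7 to 67.5 on those of set 1. Of 15 epidermal genes 11 were at least moderate (median 78.6), with Tl, the Toll receptor, at 96.4, Nrx-IV, a septate junction protein, at 93.8, par-6, a polarity protein, at 88.4, and cora, also of septate junctions, at 85.9. serp at 52.0 and kkv at 45.8, both of chitin formation, were low and sha at 21.5 near background. None of the 12 tracheal, gland and gut genes was abundant (median 62.8). hkb at 76.7, fkh at 69.7, GATAe at 67.9 and kni at 66.9 led, and btl, the tracheal FGF receptor, was last at 44.2. Of 10 germline genes 3 were at least moderate (median 47.8), with gcl at 87.6, tud at 86.7 and aub at 61.5, whereas osk was at 39.7, vas at 35.9 and zpg at 30.8. Which of these levels stem from sorted cells of other types was not tested.

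Signalling genes were found in all bands, and as different probe sets are not compared in level, ligands and receptors are given by value alone. In the FGF pathway pyr and ths, the ligands of Htl, had mean ranks of 55.5 and 46.8, and htl one of 79.8. In the Dpp pathway dpp was at 66.0, and the receptor genes tkv, sax, put and wit were at 95.5, 95.1, 91.3 and 42.2. gbb, another ligand of that family, was abundant at 97.2, scw at 21.98 and tsg at 19.3 near background. hh lay at 59.4 and its receptor gene ptc at 77.5, with ci, the transcription factor of the pathway, at 97.7. Of the JAK-STAT genes, upd1 and upd2, both ligands, were at 47.1 and 21.2, the receptor dome at 89.6 and Stat92E, the transcription factor, at 94.8. The EGF ligand gene spi was at 98.3 and Egfr at 77.7. The Notch list was among the brightest, with 12 of 15 members abundant (median 96.8). Its first 4 were Tom, BobA, E(spl)m7-HLH and E(spl)malpha-BFM, at 99.7, 98.8, 98.4 and 98.1, which are targets of Notch or their relatives. Of 5 measured Wingless pathway genes wls, needed to secrete the ligand, was highest at 94.1, and por, an acyltransferase, lowest at 62.4.

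Genes of growth and division were bright. All 17 measured cell cycle genes were at least moderate (median 82.1), with the mitotic cyclins CycB at 97.6 and CycB3 at 96.2 and the anaphase activator fzy at 94.6 at the top. Rbf, the retinoblastoma protein, at 78.2, RnrL, a ribonucleotide reductase subunit, at 73.4, and Orc1, of the origin complex, at 63.1 were the lowest. Of 11 translation factor genes 10 were abundant (median 99.5), the exception being eEF1alpha2 at 64.6. Chromatin genes had a median of 90.3, from His2Av at 99.7 to BigH1, the embryonic linker histone, at 25.3. Cytoskeletal genes had a median of 92.1, and betaTub85D, a testis tubulin, was the lowest of the 10 at 29.4. Of 9 glycolytic genes only Eno, enolase, was abundant, at 94.1 (median 68.5). In the stress list Hsc70-4 at 99.9, Hsc70-3, a chaperone of the endoplasmic reticulum, at 99.6 and DnaJ-1 at 95.9 were abundant and the other 8 members moderate. Of 5 measured Hox genes Antp was highest at 88.1 and pb lowest at 32.7.

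In 3 large protein complexes the main subunits and their gene copies lay far apart, a split that was made after the values were seen. All 34 cytosolic ribosomal protein genes other than copies were abundant, with mean ranks from 94.6 to 99.998. The 7 set apart as copies of another gene, such as RpS19b at 57.7, RpL22-like at 44.3 and RpL10Aa at 20.9, lay between 20.9 and 57.7. These 7 were listed by hand, not by a symbol rule, and are all the ribosomal members under 60. The clean separation in this complex was thus set by the choice and is no result. All 26 proteasome genes other than copies were at least moderate, from 81.0 to 97.4, and the 14 whose symbols end in R or T, with or without a digit, lay between 7.71 and 48.0. Examples are Rpn13R at 48.0, Prosalpha3T at 31.1 and Prosalpha4T1 at 7.71; in adult flies such copies are known from testis. Of 53 respiratory chain genes other than copies 50 were at least moderate, led by ND-MLRQ at 99.6, and the exceptions were UQCR-11 at 58.0, ND-B12 at 55.1 and ND-B8 at 6.70. The 18 named as like another gene lay between 9.97 and 58.0, with ATPsynepsilonL at 58.0 and COX7AL at 9.97. Mitochondrial ribosomal proteins had all 69 members at least moderate (median 85.3), from mRpS7 at 95.04 down to mRpL48 at 72.0.

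Families of later life gave the level of background. Over 9 families with roles in adult sense organs, egg shell, cuticle, testis and accessory gland, salivary glue and serum, or gut digestion, 380 of 415 genes lay under a rank of 40, or 91.6%, against 42.3% of all genes. Medians were 22.1 for 57 odorant receptors, 24.1 for 56 gustatory receptors, 21.1 for 53 ionotropic receptors and 22.6 for 47 odorant-binding proteins. They were 27.0 for 104 cuticle proteins, 27.2 for 14 chorion and vitelline membrane proteins, 18.4 for 42 testis and accessory gland proteins, 20.1 for 20 glue and serum proteins and 22.2 for 22 gut proteases. Of the 81 cytochrome P450 genes 5 were moderate, the highest being Cyp310a1 at 70.9 and Cyp305a1 at 67.7 (median 24.1). The 17 Tag control probe sets, which have no fly target, averaged between 4.30 and 33.6 over the arrays.

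Of the 415 genes 2 stood at 60 or above. Obp99a, named as an odorant-binding protein, had ranks of 99.6, 99.5 and 99.5 in set 2 and of 99.2, 99.2 and 99.1 in set 1. Mst85C, named for male-specific transcripts, was at 84.6, 84.0 and 85.1 in set 2 and at 78.7, 77.6 and 79.5 in set 1. Both were thus bright on all 6 arrays, whatever their family name.

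Over all genes, 1296 were abundant, 3872 moderate, 1744 low and 5071 near background, sizes that the band edges fix in part. The edges cut through a continuum: ND-39 at 90.02 and lbk at 89.99 fell on the sides of the first edge, Lsd-1 at 60.02 and loaf at 59.996 on those of the second, and subdued at 40.02 and CG14332 at 39.98 on those of the third. Of the genes, 10247 fell in the same band by either set's mean, or 85.5%, and 1735 in neighbouring bands. Only Sgs7, a salivary glue protein, was 2 bands apart, and 0 genes were 3 bands apart.

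How far the sets' ranks agree depended on brightness. Across the 13647 probe sets, which are not independent replicates, Spearman's rho between arrays was 0.940 to 0.951 within set 2, 0.897 to 0.901 within set 1 and 0.900 to 0.907 between sets. Between the sets' mean ranks it was 0.933, with a Pearson r of 0.951. For the 5455 probe sets at a mean rank of 60 or more, rho was 0.988 to 0.996 within set 2 and 0.990 to 0.991 within set 1, against 0.931 to 0.943 between sets. Bright genes were therefore ordered almost identically within a set, and less so across sets. For the 6145 probe sets under 40, rho was 0.436 to 0.517 within set 2, 0.181 to 0.212 within set 1 and 0.191 to 0.236 between sets. Array A of set 2 stood slightly apart from B and C of its set.

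The spread of a gene's rank between arrays of a set ran with the bands. Its median SD was 0.243 percentage points in set 2 and 0.188 in set 1 for abundant genes, and 0.936 and 1.00 for moderate genes in set 2 and set 1. In the low band it was 1.66 in set 2 and 3.90 in set 1, and near background 8.02 in set 2 and 11.2 in set 1. Below a rank of 60 the arrays of set 1 were thus the more scattered.

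**Figure D2:**
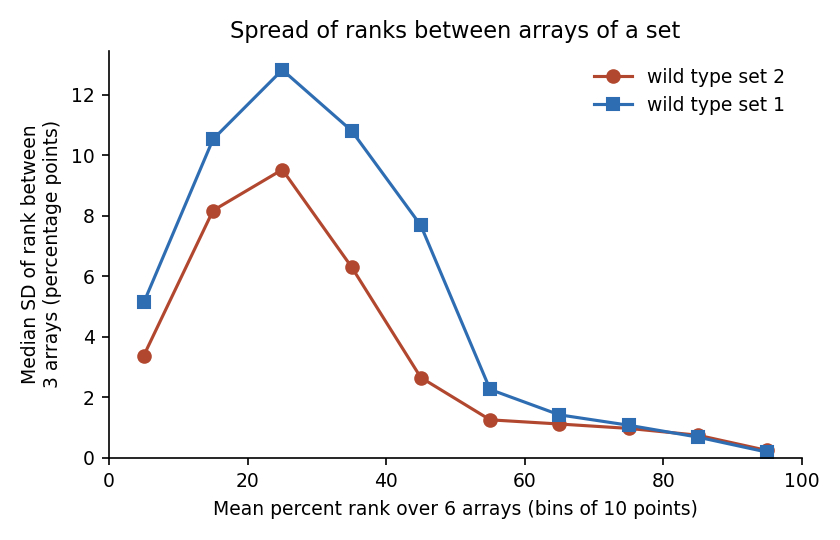
Median SD of a gene's percent rank between the 3 arrays of a set (vertical axis, percentage points) in bins of 10 points of mean rank (horizontal axis), for wild type set 2 (circles) and wild type set 1 (squares). The SD peaks at 9.53 in set 2 and 12.8 in set 1 for ranks of 20 to 30 and falls to 0.243 in set 2 and 0.188 in set 1 above 90.

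The sets were then compared directly, set 2 minus set 1, with limma on percent ranks with an intensity trend and Benjamini-Hochberg adjustment over all 13647 probe sets. At an adjusted p under 0.05, 2992 probe sets differed, or 21.9%, of which 1423 were higher and 1569 lower in set 2. In genes these were 2802, or 23.4%, with 1342 higher (11.2%) and 1460 lower (12.2%). Among abundant genes 22.5% were called higher and 27.2% lower, and among moderate genes 21.2% and 25.2%, against 5.56% and 2.92% in the low band and 2.62% and 1.6% near background. Over both directions the shares were 49.8% of abundant, 46.4% of moderate, 8.49% of low and 4.22% of near-background genes. The lists below are to be read against these shares. The 3 ranks of set 2 lay wholly above or below those of set 1 for 4780 genes, or 39.9%. The median difference over all genes was -0.17 points. Differences were mostly small, and only 510 of the 2992 probe sets moved by 10 points or more.

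Signal of the RNAs added as controls moved with the sets too. All 12 poly-A control probe sets, whose RNA is added before labelling, ranked higher in set 2, with a median of 96.7 against 79.6 in set 1. None of the 9 hybridization control probe sets, added after labelling, ranked higher in set 2, and their medians were 96.5 in set 2 and 97.0 in set 1. Act5C and GAPDH control probe sets read the fly's own RNA. Their 3' minus 5' log2 difference was 1.44 ± 0.04 in set 2 and 1.44 ± 0.02 in set 1 for Act5C, and 2.69 ± 0.31 in set 2 and 3.05 ± 0.04 in set 1 for GAPDH (SD, n = 3 each). For GAPDH, array A of set 2 lay with set 1 at 3.05, and only B at 2.49 and C at 2.52 were lower. The part of these controls in the differences between the sets was not tested.

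**Figure D3:**
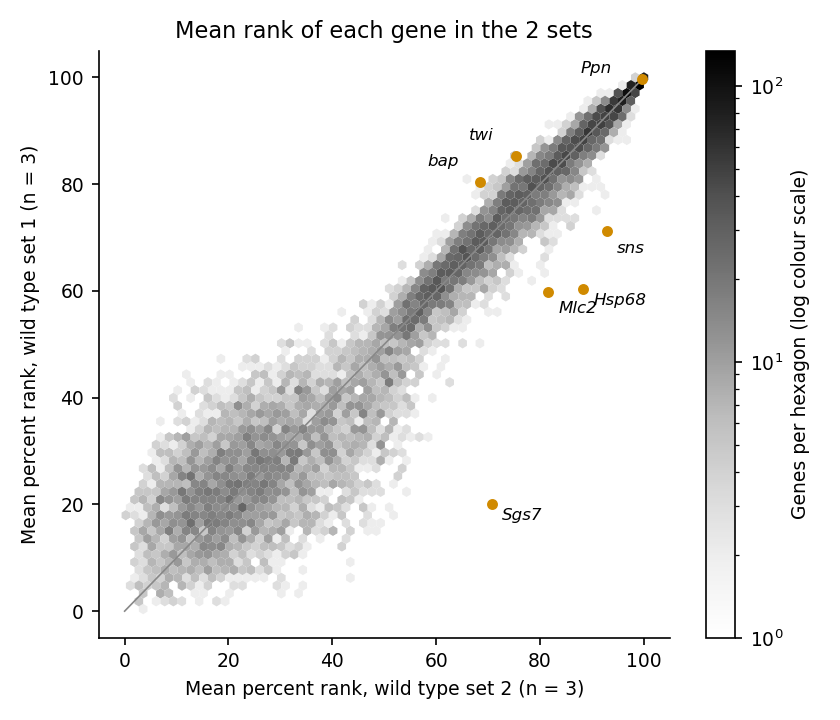
Mean percent rank of 11983 genes in wild type set 2 (horizontal axis, n = 3) and wild type set 1 (vertical axis, n = 3), as hexagons shaded by the number of genes on a log scale, with the line of equal rank and 7 named genes. The cloud narrows towards 100 and widens under 50; Sgs7 lies at 70.7 in set 2 and 20.045 in set 1.

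Of the markers, twi was lower in set 2 by 9.88 points (SE 1.31, limma adjusted p = 0.00118) and zfh1 differed by -1.77 points (SE 0.22, adjusted p = 9.56e-04). For htl the difference was -2.73 points (SE 1.49, adjusted p = 0.255) and for Ppn -0.04 (SE 0.12, adjusted p = 0.877), neither of which passed. sna, the Snail repressor of early mesoderm, which is also on in neuroblasts, moved the other way. It had ranks of 92.5, 92.5 and 92.4 in set 2 and of 83.8, 83.7 and 84.1 in set 1, a rise of 8.57 points (SE 0.25, limma adjusted p = 1.65e-06). With sna higher and twi and zfh1 lower, 1 of the 5 general mesoderm genes rose and 2 fell.

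Of 9 visceral mesoderm genes 7 fell and 1 rose in set 2, against 25.2% and 21.2% of all moderate genes. bap had ranks of 69.2, 66.8 and 69.1 in set 2 and of 78.5, 79.1 and 83.5 in set 1, a difference of -12 points (SE 1.36, limma adjusted p = 5.51e-04). bin, a forkhead factor that acts with bap, lay at 69.6, 70.2 and 70.01 in set 2 and at 77.8, 80.01 and 78.5 in set 1. Neither gene's sets overlapped, which was so for 39.9% of all genes. jeb, org-1, Con, HLH54F and vimar also fell, with differences of -15.3, -9.16, -6.24, -5.2 and -0.94 points. beat-IIa, of a family of immunoglobulin cell-surface proteins, rose by 6.46 points, and Alk, near background, did not pass. Adult muscle precursor genes fell in 4 of 6 cases, namely E(spl)mdelta-HLH, Him, zfh1 and twi, and 0 rose, though only 1 was called without an intensity trend.

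Of 20 contractile genes 8 rose and 2 fell in set 2, against 21.2% and 25.2% of all moderate genes, and 10 did not pass. Mlc2, a myosin light chain, had ranks of 81.6, 81.3 and 81.8 in set 2 and of 58.5, 61.0 and 59.95 in set 1, a rise of 21.8 points (SE 0.85, limma adjusted p = 4.89e-06). TpnC73F lay at 91.3, 91.4 and 91.3 in set 2 and at 76.2, 75.0 and 76.2 in set 1. bt, a titin-like kinase, Strn-Mlck, a myosin kinase, Mlc1, Msp300, a nesprin, and Tm2, tropomyosin, rose by 14.4, 13.6, 12.2, 10.6 and 8.35 points, and Zasp66 of the Z-disc, a low gene, by 27.1. The genes that fell were sls, with a difference of -5.26 points, and Act88F, near background, with -18.1. The call of Act88F was lost when any of the 6 arrays was left out, and that of Zasp66 when any array other than array B of set 1 was. Zasp66 also did not pass without an intensity trend (limma adjusted p = 0.0829). Actn and Act87E, the other bright members, differed by -0.71 and 0.06 points and did not pass.

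Among fusion genes, sns had ranks of 93.0, 92.4 and 93.0 in set 2 and of 73.6, 71.8 and 68.0 in set 1, a rise of 21.7 points (SE 1.24, limma adjusted p = 2.39e-05). siz, an Arf exchange factor of fusion, rose by 4.26 points, and Vrp1, hbs and rst by 1.35, 0.62 and 0.61. kirre, rols and sing fell, with differences of -6.27, -3.33 and -1.4 points. In all, 5 of 12 rose and 3 fell, against 22.5% and 27.2% of all abundant genes. Of the 21 identity factors 3 rose and 3 fell, no more than the 21.2% and 25.2% of all moderate genes. Kr rose by 10.3 points, Ptx1 by 5.70 and eve by 4.66, and org-1, slou and nau, the fly MyoD relative, had differences of -9.16, -8.84 and -4.91. Without array B of set 2 the counts were 3 and 3 for fusion genes and 1 and 2 for identity factors. Of 16 integrin and attachment genes 7 rose and 2 fell, against 22.5% and 27.2% of all abundant genes. Without an intensity trend the counts were 3 and 0. The integrin alpha chain mew rose by 13.8 points, Vinc, vinculin, by 12.2 and Ilk by 3.38. scb and kon fell, with differences of -1.29 and -1.34 points.

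**Figure D4:**
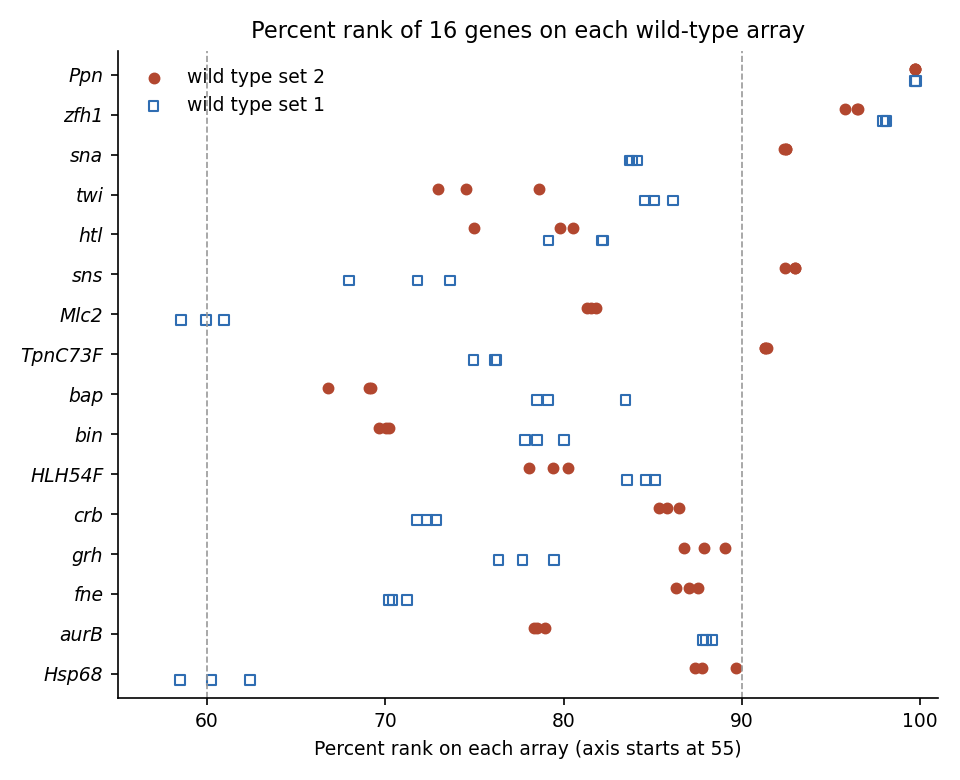
Percent rank of 16 genes on each of the 3 arrays of wild type set 2 (filled circles) and the 3 of wild type set 1 (open squares); the axis starts at 55 and dashed lines mark ranks of 60 and 90. The sets overlap for htl, and for Ppn they lie within 0.1 points of each other; sna, sns, Mlc2, TpnC73F, crb, grh, fne and Hsp68 are higher in set 2, and zfh1, twi, bap, bin, HLH54F and aurB are lower.

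Of 15 epidermal genes 12 rose and 1 fell in set 2, against 21.2% and 25.2% of all moderate genes. These shares also apply to the neural and the tracheal, gland and gut lists below. crb, the apical polarity protein Crumbs, had ranks of 85.3, 85.8 and 86.5 in set 2 and of 72.9, 71.8 and 72.3 in set 1, a rise of 13.6 points (SE 0.52, limma adjusted p = 4.89e-06). kkv and verm, of the chitin pathway, rose by 23.0 and 19.7 points at low levels, calls that were lost without an intensity trend (adjusted p = 0.0673 and 0.142). shg, E-cadherin, fell by 6.05 points. Of 21 neural genes 11 rose and 1 fell: nSyb by 25.2 points, fne, a relative of elav, by 16.4 and repo, the glial factor, by 10.4, against a fall of 9.02 for l(1)sc, a proneural factor that is also known from muscle progenitors. The call of nSyb was lost when any array other than array A of set 1 was left out. elav, the brightest of them, differed by 0.25 points (adjusted p = 0.3997) and did not pass. Of 12 tracheal, gland and gut genes 4 rose, vvl by 13.7 points, hkb by 11.2, kni by 10.035 and pip by 8.31, and fkh fell by 3.70. Without array B of set 2, epidermal counts were 7 higher and 1 lower, and without array C 8 and 1; neural counts were 8 and 1 in either case.

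Of 11 stress genes 8 rose and 0 fell, against 21.2% and 25.2% of all moderate genes. These shares also apply to the glycolytic and Dpp lists below. Hsp68, an inducible chaperone, had ranks of 89.7, 87.4 and 87.8 in set 2 and of 58.5, 62.4 and 60.3 in set 1, a rise of 27.9 points (SE 1.10, limma adjusted p = 4.89e-06). Hsp27 and Hsp26, small heat shock proteins, rose by 15.9 and 13.7 points, and puc, a phosphatase of the JNK pathway, by 10.5. The constitutive Hsc70-4 and Hsc70-3 differed by -0.002 and -0.12 points and did not pass. Of 9 glycolytic genes 4 rose and 0 fell: Ald1, aldolase, by 14.0 points, Pfk by 7.44, Eno by 6.29 and Hex-A by 4.83. Of 71 respiratory chain genes 17 rose and 2 fell, by no more than 3.87 points among those that rose. All 17 that rose were among the 50 that are at least moderate. Of all abundant genes 22.5% rose, and of all moderate genes 21.2%. Of 13 Dpp pathway genes 5 rose and 0 fell, with dpp up by 7.32, though only 3 rose without array C of set 2.

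Of 17 cell cycle genes 10 fell and 1 rose, against 25.2% and 21.2% of all moderate genes, and 6 did not pass. aurB, the Aurora B mitotic kinase, had ranks of 78.5, 78.3 and 79.0 in set 2 and of 88.0, 88.3 and 87.8 in set 1, a fall of 9.47 points (SE 0.36, limma adjusted p = 4.89e-06). Rbf and Cdk2 differed by -6.47 and -5.8 points, and CycE, the cyclin of S phase entry, rose by 7.55. Of 40 proteasome genes 14 fell and 0 rose, against 27.2% and 22.5% of all abundant genes. These 14 were all among the 26 that are not copies. Rpt2, Rpn12 and Prosalpha2 led them, with -2.81, -2.77 and -2.73 points. Of 15 Notch pathway genes 5 fell and 2 rose, against 27.2% and 22.5% of all abundant genes. The 5 that fell were targets or relatives, E(spl)m5-HLH, Brd, E(spl)malpha-BFM, E(spl)m7-HLH and E(spl)m4-BFM, with differences of -2.33, -1.3, -1.01, -0.81 and -0.75 points. neur, a ubiquitin ligase of Notch ligands, and mam, a coactivator, rose by 2.38 and 3.36. With centred log2 values the Notch counts were 6 in each direction, so no common direction is given for the list. Chromatin genes fell in 4 of 12 cases and 0 rose, a share near the 27.2% of abundant and 25.2% of moderate genes, and only 2 fell when any array other than array A of set 2 was left out.

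Of 20 blood cell genes 7 fell and 4 rose in set 2, against 27.2% and 22.5% of all abundant genes. Without array B of set 2 or without array B of set 1, 4 fell. gcm, a factor of glia and blood cells, had a difference of -2.74 points, its relative gcm2 one of -8.7 and ush one of -4.57. PPO1 and PPO2, the crystal cell enzymes, rose by 5.06 and 1.00, and Glt, a matrix protein, by 4.24. Of 14 cardiac genes ush, Doc1 and Doc3 fell and svp rose, against 25.2% and 21.2% of all moderate genes.

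**Figure D5:**
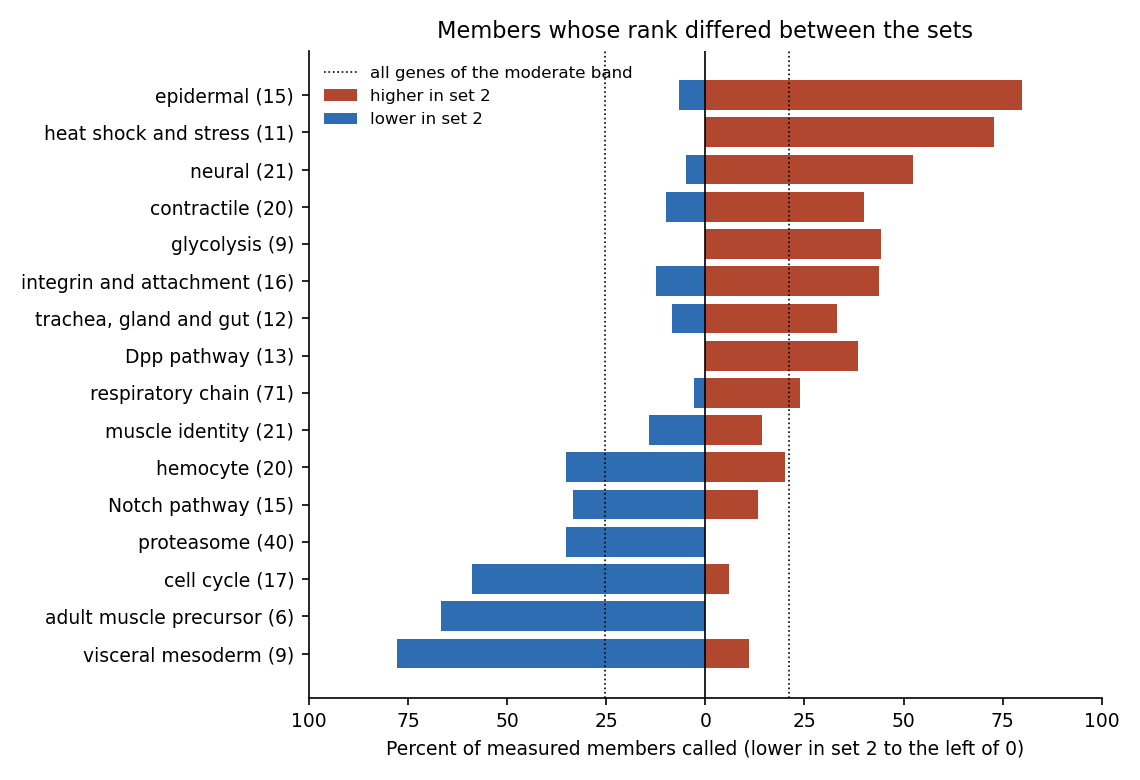
Percent of each list's measured members (number in brackets) called higher in wild type set 2 (right of 0) or lower in it (left of 0) by limma at an adjusted p under 0.05; dotted lines mark 21.2% higher and 25.2% lower, the shares of all moderate genes. Epidermal (12 of 15) and stress genes (8 of 11) reach farthest to the right, and visceral mesoderm (7 of 9) and adult muscle precursor genes (4 of 6) to the left.

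By rank, few genes of the cytosolic ribosomal and sense organ families were called. Of 41 cytosolic ribosomal genes 0 rose and 1 fell, though genes at the top of the scale have little room to move in rank. With log2 values centred on each array's median instead, 32 of the 41 were called lower in set 2. For mitochondrial ribosomal genes the counts were 14 higher and 10 lower in rank and 37 higher and 2 lower with centred log2 values, so no direction is given for either family. Among 57 odorant, 56 gustatory and 53 ionotropic receptors, 0, 2 and 1 were called higher and 1, 2 and 1 lower, which is close to the shares near background.

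The largest differences in rank were found among dim genes. Sgs7 had ranks of 69.9, 71.8 and 70.4 in set 2 and of 18.6, 33.2 and 8.30 in set 1, a rise of 50.7 points (SE 6.15, limma adjusted p = 7.76e-04). DAT, the dopamine transporter, rose by 44.1 points and Cipc by 41.3, followed by CG13743, CG13196, bam, TwdlW, Spn77Ba, CG31624, Spn42De, CG7264 and br, the last by 35.4. In the other direction CG13074 led with a difference of -38.4 points, CG43058 had -34.9 and CG10587 -33.7, followed by CG5078, Muc68E, Or42a, CG14269, Cpr65Aw, CG32945, SP, Cpr49Ae and lncRNA:CR30121, the last with -31.1. Except for Sgs7 and br, which were low by their mean over the 6 arrays, all 24 were near background, where the spread is widest, so their sizes and order are uncertain.

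Among abundant and moderate genes, singled out after their values were seen, Hsp68, Mlc2 and sns had the largest rises. Prps, a nucleotide synthesis enzyme, rose by 21.3 points, MFS3, a transporter, by 20.8 and GILT1, a thiol reductase, by 19.8. jhamt, a juvenile hormone methyltransferase, lay at 94.8, 94.6 and 94.8 in set 2 and at 76.7, 76.6 and 75.2 in set 1. Lmpt and cas, a factor of neuroblasts, followed with 19.3 and 18.6 points. The largest falls there were those of Glut4EF at -19.1 points, CG14856 at -16.4, CG7029 at -15.6, Atg17, an autophagy protein, at -15.5 and Mnt, the antagonist of Myc, at -14.4. Glut4EF had ranks of 62.5, 65.0 and 62.7 in set 2 and of 82.6, 81.9 and 83.0 in set 1.

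A gene's place also depended on which of its probe sets was read. Of 1094 genes with more than 1 probe set, 552 had all of them in 1 band, and the median gap between the highest and the lowest was 17.5 points. In 32 genes 1 probe set was abundant and another near background. The widest gaps outside the lists were those of ps, with probe sets from 97.8 down to 10.4, Traf4 from 97.9 to 11.4, CRMP from 95.6 to 13.1, CG13551, thw, milt, HP4 and Dora. In the lists they were fzy from 94.6 to 15.4, shn from 87.6 to 14.3, COX7B from 99.3 to 28.7, Pxn from 97.0 to 27.1 and kn from 83.9 to 15.1, so for these genes the band given above rests on the brightest of several probe sets.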

How the data were processed

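Per the labels, total RNA of sorted cells was biotin-labelled and hybridised to single-colour arrays. The authors deposited 1 value per probe set and array, read here as log2 from its size; per the submitters' processing notes the R package affy was used, and its version and settings are not given in the sources used here. Percent ranks were computed within each of the 6 wild-type arrays, after leaving out controls, over probe sets with 1 gene symbol. Of those 13647, 13544 were matched to RefSeq symbols by gene ID. No coordinates are printed, since the array annotation names no build. Sets were compared with limma 3.58.1 in R 4.3.3, moderated with an intensity trend, and Benjamini-Hochberg adjusted over all probe sets. Tables and figures were made in Python 3.11.15 with pandas 2.3.3. The number of arrays limits the precision.

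Members and the 42 gene lists, 27 of fixed symbols and 15 families matched by symbol, were chosen with earlier results of these data known. Cp110 and Cp190, matched by the chorion pattern but not chorion genes, were left out. Genes named are the markers, the 20 brightest, the 12 largest called differences per direction, of each list described up to 4 brightest and 3 dimmest members and up to 3 called per direction, and 8 with the widest probe set gaps; other named members were chosen after their values were seen. Alternatives were normal scores, quantile normalization, centred log2 values, no trend, other filters and band edges, all 12 arrays, a replicate block and leaving out each array. Simulated data were also fitted in the place of set 2 minus set 1. In these, 50 probe sets each were shifted by 0.5, 1, 2 and 4 on the log2 scale. The dimmest and the very brightest probe sets were left out of the draw, and means and spread came from set 1 alone. Recovery is thus not known for those levels or for the spread of set 2. Of them 19, 25, 35 and 42 were recovered, with 3 false calls among the unshifted rest of the 13647. Only the shifted probe sets were made to differ, so the simulation held no difference between batches. Its false calls therefore give no error rate for the comparison of the real sets. Letters A to C are shared by the sets, but deviations of same-lettered arrays from their set means correlated at -0.03, -0.01 and -0.00, so the letters were not taken to pair arrays. Promoter motifs, planned as a description, and sequences were not used here.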

Additional observations from a re-analysis of the deposited data

How the results depend on the processing

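Against 2992 probe sets called between the sets, counts lay between 2471 and 3579 under normal scores, quantile normalization, the ranking of all probe sets, a filter at rank 40, a fit of 12 arrays and the replicate block, which gave 2471 (1194 higher, 1277 lower). Totals differed there: 3306 of 7502 probe sets were called with the filter and 3340 of 18769 with all ranked. With log2 values centred on each array's median 3707 were called, of which 63.7% were higher in set 2 (2361), against 47.6% by rank. Without an intensity trend there were 1679, with 839 higher and 840 lower, and with a minimum of 10 points 510, with 353 and 157. Without each array in turn, counts ranged from 2079 (without array B of set 2) to 2794, with 963 to 1308 higher and 1116 to 1488 lower. Without the trend, fusion genes had 2 higher and 2 lower, Notch genes 0 and 0 (7 by the main test), proteasome genes 0 and 3, respiratory chain genes 3 and 1, hemocyte genes 2 and 1, integrin genes 3 and 0, adult muscle precursor genes 0 and 1, chromatin genes 0 and 0, Dpp pathway genes 2 and 0, cell cycle genes 0 and 6 and epidermal genes 7 and 1. Contractile genes had 8 and 2 there, though Zasp66 was no longer among those called, and visceral mesoderm genes had 1 and 6. Without each array, contractile counts were 7 to 8 higher and 1 lower, and visceral ones 1 and 7. Epidermal counts were then 7 to 10 and 1, and cell cycle counts 0 to 2 and 9 to 10. zfh1 did not pass without the trend (adjusted p = 0.106), and Ppn passed with quantile normalized and with centred values (adjusted p = 0.0185 and 6.73e-08). The calls of br, CG5078, Or42a, CG14269, SP, Cpr49Ae and lncRNA:CR30121 were lost under at least 1 alternative, the last also with the replicate block. Over the markers, the called list members and the largest differences, 275 genes in all, 0 rank differences changed sign under these alternatives. Nearly all of these genes were picked by their call on the same arrays, so the stable sign was largely set by the choice. Of the 273 called among them, 150 lost the call under at least 1, and 125 lost it without the trend.

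Band sizes hold for the edges chosen. With edges of 95, 70 and 30, 637 genes were abundant and 4333 low. Asking a band to hold on every array left 650 low and 2439 near background. With all 18769 probe sets ranked, rho between the sets' mean ranks was 0.899. Near background the order of genes is limited by signal over background. The cause of these changes was not tested. The planned promoter motifs were not run.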

Other observations

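Probe sets with no gene symbol enter the comparisons above only where all probe sets were ranked. Of these, 294 of 4720 ranked as abundant among all probe sets, 420 as moderate, 588 as low and 3418 as near background. Another 402 had several symbols.

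The gain-of-function arrays, which share no array with the wild-type sets, were set beside the difference between the sets. Of the 2802 genes called between the sets, 2214 (79.0%) had a difference of Msh minus Slou arrays of the same sign as set 2 minus set 1, against 66.2% of all genes. The shares were 14 of 14 called proteasome genes, 12 of 13 epidermal and 8 of 8 fusion genes, but 3 of 10 contractile, 4 of 11 cell cycle and 6 of 19 respiratory chain genes. These are counts of signs, with no test. Msh minus Slou also holds the effects of Msh and of Slou, and the titles tie neither to a wild-type set. Factor and batch thus cannot be told apart in these counts.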
